A study of Mus musculus with 4 samples.

Results

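53BP1 is a scaffold protein of the response to DNA double-strand breaks, and PTIP, whose gene symbol is Paxip1, is one of its binding partners. The genes examined here are 9 of the DNA break response in which PTIP takes part: Trp53bp1, Rif1, Dclre1c, Atm, Mdc1, Rnf8, Rnf168, Parp1 and Brca1. They are a list of names fixed by their place in that response, drawn up with earlier results of these data known. All 9 were found among the 55487 genes of the count table and passed the filter on low counts. RNA came from lower incisor cells of mice, sorted and labelled as dental pulp progenitors of strain C57 at postnatal day 30, negative for the surface proteins CD45, Ter119 and Tie2. The 2 control libraries have the genotype Ptipf/f, with floxed alleles and no Cre. The 2 knockout libraries have the genotype Ptipf/f;Sp7-cre. Both groups carry the floxed alleles, so loss of Ptip and presence of the Cre transgene cannot be told apart. Sp7 encodes a transcription factor of cells that form bone and dentin, and sorted cells outside that lineage would keep Ptip. The labels do not say whether libraries came from separate animals or pools, so the p-values measure only the spread between these libraries, which may be technical.

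At a break, the kinase ATM phosphorylates the histone variant H2AX, which is bound by the adaptor MDC1. MDC1 recruits the ubiquitin ligase RNF8, whose signal is carried on by the ligase RNF168, and 53BP1 binds the chromatin marked in this way. Phosphorylated 53BP1 then recruits a pair of effector arms, RIF1 with the shieldin complex, and PTIP with the nuclease Artemis, encoded by Dclre1c. These favour end joining, whereas BRCA1 favours resection of the ends and homologous recombination. PARP1 marks breaks with ADP-ribose chains and acts mainly on single-strand breaks. PTIP also has a role outside repair, in the histone methyltransferase complexes built on KMT2C and KMT2D.

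The promoters of the genes that differed most between the groups are shown, together with that of Trp53bp1, which differed least. The windows come from RefSeq on GRCm38.p6 and run 5′ to 3′ on the strand of the gene, from 250 bases before the start of the gene to 50 after it. Of the 9 genes, 8 matched an entry, and Rif1 did not. Capitals in Mdc1 mark a word bound by E2F factors, the regulators of S-phase genes. Capitals in Brca1 mark the 152 bases between its start and that of Nbr1, an autophagy receptor gene read in the opposite direction.
Mdc1 (chr17:35841248-35841547, plus strand): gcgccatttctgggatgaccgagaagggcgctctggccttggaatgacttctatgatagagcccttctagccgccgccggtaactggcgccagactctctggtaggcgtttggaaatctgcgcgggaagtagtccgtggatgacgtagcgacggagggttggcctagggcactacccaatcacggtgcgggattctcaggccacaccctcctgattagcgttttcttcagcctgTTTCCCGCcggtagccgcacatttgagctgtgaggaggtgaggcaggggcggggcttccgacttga
Brca1 (chr11:101551906-101552205, minus strand): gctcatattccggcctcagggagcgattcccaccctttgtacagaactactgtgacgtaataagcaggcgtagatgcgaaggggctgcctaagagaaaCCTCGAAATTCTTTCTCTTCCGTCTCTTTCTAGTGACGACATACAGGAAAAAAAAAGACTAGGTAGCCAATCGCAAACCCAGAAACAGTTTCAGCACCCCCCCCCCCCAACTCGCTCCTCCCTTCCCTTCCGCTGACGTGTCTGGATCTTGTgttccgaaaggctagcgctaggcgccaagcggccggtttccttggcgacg
Parp1 (chr1:180568641-180568940, plus strand): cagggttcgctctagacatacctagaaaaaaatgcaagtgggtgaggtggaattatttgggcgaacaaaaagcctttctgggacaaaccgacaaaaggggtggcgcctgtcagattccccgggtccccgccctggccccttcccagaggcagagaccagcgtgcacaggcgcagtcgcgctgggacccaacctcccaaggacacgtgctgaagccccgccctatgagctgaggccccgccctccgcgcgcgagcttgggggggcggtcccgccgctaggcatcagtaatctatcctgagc
Trp53bp1 (chr2:121271358-121271657, minus strand): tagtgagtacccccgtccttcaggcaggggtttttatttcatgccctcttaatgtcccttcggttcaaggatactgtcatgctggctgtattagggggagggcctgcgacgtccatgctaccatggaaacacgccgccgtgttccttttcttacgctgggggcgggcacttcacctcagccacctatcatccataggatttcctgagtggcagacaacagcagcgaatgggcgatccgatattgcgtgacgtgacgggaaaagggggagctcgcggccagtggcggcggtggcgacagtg

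The E2F words searched on both strands were TTTCCCGC, TTTCGCGC, TTTGCCGC and TTTGGCGC. Among the 8 windows, Mdc1 alone held such a word, 16 bases before its start. Of 32851 promoter windows of 300 bases, 2.26% held one. The words TTTGAA and TTCGAA, forms of the element that cell cycle repressor complexes bind, occurred in 19.2% of windows and, among the 8, in that of Rnf8 only. A match describes letters and no more, and the absence of one says nothing about binding.

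Of the 9 genes, 7 had both knockouts below both controls (77.8%), against 24.9% of the 17128 tested genes. Atm was the gene higher in both knockouts, a pattern found in 25.8% of tested genes, and Trp53bp1 overlapped between the groups. Brca1, Parp1 and Mdc1 had the largest differences, at 4.66-, 3.26- and 2.83-fold lower fitted levels. None of the 9 passed an adjusted p of 0.05 in edgeR's quasi-likelihood test, in which 0% of all genes passed. At an unadjusted p under 0.05, these 3 genes were lower, against 9.89% of tested genes lower and 7.32% higher, and no member was higher. DESeq2 called Parp1 and Brca1 lower, against 5.18% of its tested genes called lower and 2.47% higher. Over the 9 genes the median log2 fold change was -0.35, and over all tested genes it was 0.002.

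**Figure D1:**
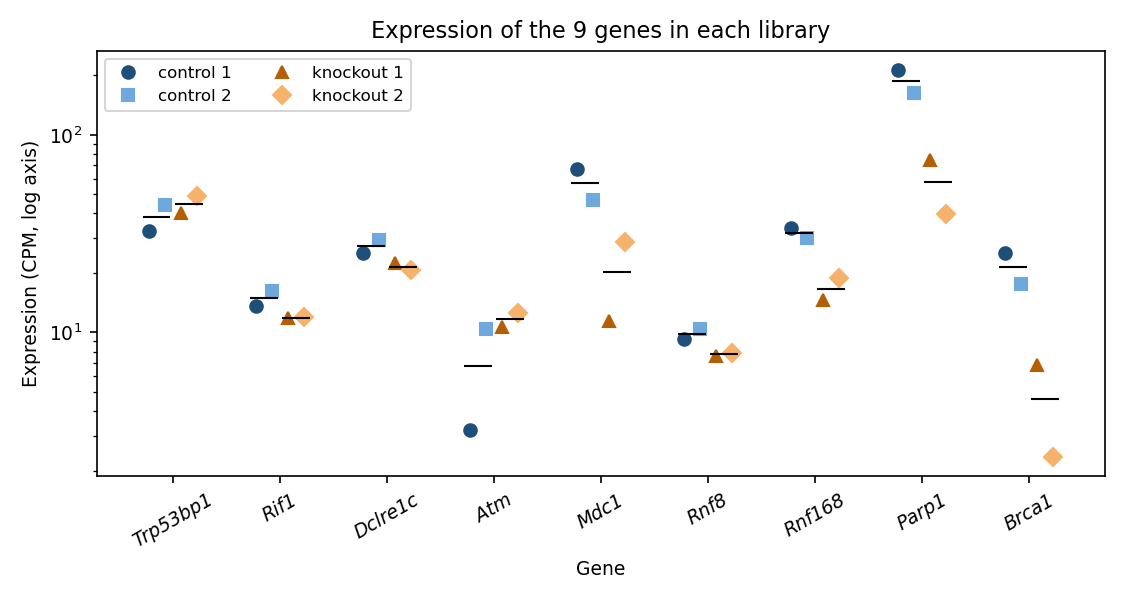
Expression of each gene on the counts-per-million scale (CPM, log axis) in the 4 libraries, with a bar at each group mean. Both knockouts lie below both controls for 7 genes, with the widest gaps for Brca1, Parp1 and Mdc1, while Trp53bp1 overlaps between the groups and Atm is low in control 1.

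Paxip1, the targeted gene, had 28.3 and 44.3 CPM in controls 1 and 2, and 5.69 and 3.98 CPM in knockouts 1 and 2. Its level was thus lower in both knockouts, with a log2 fold change of -2.91 (SE 0.48) and an adjusted p of 0.150 in edgeR and 9.6e-06 in DESeq2. In edgeR it passed without control 1 (0.00948) and without knockout 1 (0.00669), fits that leave a group with 1 library. By a chi-square of their counts, replicates were not copies of a single library. The library totals ran from 15154246 to 19142757 counts, and a count of 3 corresponds to 0.154 to 0.209 CPM, a figure that covers counting error only. Genes named by the sort were still counted: Ptprc, which encodes CD45, had 140 and 144 CPM in the controls against 39.2 and 9.25 in the knockouts. Tek, which encodes Tie2, had 21.7 to 81.2 CPM over the 4 libraries. Ameloblast and dental epithelium markers summed to 22850 to 63640 CPM, although the labels give dental pulp. Most of this sum was the single gene Ambn, whose groups overlapped. Ambn had 52580 and 18170 CPM in the controls and 31000 and 41110 CPM in the knockouts. Of the 12 ameloblast and epithelium markers, 7 had both knockouts below both controls (58.3%, against 24.9% of all tested genes). For 0 of them both lay above, against 25.8% of all tested genes. Dental mesenchyme markers were present as well. Of 13 tested ones, 7 had both knockouts above both controls (53.85%, against 25.8% of all tested genes). For 1 of them both lay below (7.69%, against 24.9%). In bulk RNA, fewer cells of a type and less RNA per cell cannot be told apart.

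Trp53bp1, the gene of the 53BP1 scaffold (chromosome 2, 121193281 to 121271407, minus strand, GRCm38), was read at similar levels in all 4 libraries. It had 32.7 and 44.1 CPM in controls 1 and 2, and 40.0 and 49.0 CPM in knockouts 1 and 2. The group means were 38.4 ± 8.08 and 44.5 ± 6.33 CPM (SD, n = 2 each), and the knockouts lay on either side of control 2. The log2 fold change was 0.21 (SE 0.37, 95% interval -0.66 to 1.09, edgeR adjusted p = 0.834). The interval holds both lower and higher levels, so a difference was not detectable and equality was not shown. A share of 15.0% of its annotated exon bases overlaps Tubgcp4 on the opposite strand, and these libraries do not mark strand, so part of the reads could belong to either gene.

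Rif1 and Dclre1c, of the effector arms downstream of 53BP1, had slightly lower levels in the knockout, by less than their standard errors. Rif1, the gene of the factor that blocks resection, had 13.6 and 16.2 CPM in the controls and 11.8 and 11.9 CPM in the knockouts. Its log2 fold change was -0.33 (SE 0.44, 95% interval -1.37 to 0.72, edgeR adjusted p = 0.776). Dclre1c, the gene of the Artemis nuclease that works with PTIP, had 25.4 and 29.2 CPM in the controls and 22.4 and 20.7 CPM in the knockouts. Here the groups did not overlap either, and the log2 fold change was -0.34 (SE 0.38, 95% interval -1.24 to 0.56, edgeR adjusted p = 0.712). The deposited counts give RNA levels only and say nothing on the recruitment of these proteins to breaks.

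The upstream genes differed from one another. Atm, the gene of the kinase at the head of the cascade, had 3.20 CPM in control 1, 10.4 CPM in control 2, and 10.7 and 12.6 CPM in knockouts 1 and 2. Control 2 thus lay beside the knockouts, and control 1, with 46 counts, stood apart. The log2 fold change of 0.78 (SE 0.67, edgeR adjusted p = 0.618) was 0.19 without control 1 and 1.83 without control 2. Mdc1, the adaptor that reads phosphorylated H2AX, had 67.2 and 46.6 CPM in the controls against 11.5 and 28.8 CPM in the knockouts. Every knockout value was below every control value, and knockout 1 was the lowest. The log2 fold change was -1.50 (SE 0.52, 95% interval -2.74 to -0.26, edgeR unadjusted p = 0.0244, adjusted p = 0.222). It was -2.26 without knockout 2 and -0.98 without knockout 1.

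The ubiquitin ligases that follow MDC1 were lower in both knockouts, with a larger fitted difference for Rnf168 than for Rnf8, and the gap between the 2 was not tested. Rnf8, the gene of the ligase that binds MDC1, had 9.32 and 10.4 CPM in the controls and 7.64 and 7.85 CPM in the knockouts, with a log2 fold change of -0.35 (SE 0.50, edgeR adjusted p = 0.792). Gm28043, a gene annotated on the same strand, shares 13.2% of its exon bases, so its counts are uncertain. Rnf168, the gene of the ligase whose mark on histone H2A is read by 53BP1, had 33.6 and 29.98 CPM in the controls and 14.6 and 18.8 CPM in the knockouts. The replicates of each group lay close together, at 31.8 ± 2.55 and 16.7 ± 2.98 CPM (SD, n = 2 each). The log2 fold change was -0.93 (SE 0.39, 95% interval -1.86 to 0.001, edgeR unadjusted p = 0.0501, adjusted p = 0.291). With 1 library left out it ranged from -1.08 to -0.75 and did not pass in any of these fits.

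Parp1 and Brca1 had the lowest adjusted p-values of the 9 genes. Parp1, the gene of the main ADP-ribose polymerase, had 213 and 162 CPM in the controls and 75.0 and 40.0 CPM in the knockouts. Both knockouts were far below the controls, and knockout 2 was the lowest. The means were 187 ± 35.9 and 57.5 ± 24.8 CPM (SD, n = 2 each), with a log2 fold change of -1.70 (SE 0.42, 95% interval -2.70 to -0.71). Parp1 had an adjusted p of 0.165 in edgeR and 0.00595 in DESeq2. Brca1, the gene of the recombination factor that opposes 53BP1, had 25.2 and 17.6 CPM in the controls and 6.82 and 2.35 CPM in the knockouts. Its order of libraries was the same as that of Parp1, and its 42 counts in knockout 2 were the fewest of any member in any library. The means were 21.4 ± 5.38 and 4.59 ± 3.16 CPM (SD, n = 2 each), with a log2 fold change of -2.22 (SE 0.64, 95% interval -3.73 to -0.71). Brca1 had an adjusted p of 0.179 in edgeR and 0.0116 in DESeq2. Without knockout 1, the knockout group is a single library that is assumed to vary as the controls do. In that fit edgeR called both genes (Parp1 at -2.22, adjusted p = 0.0497, and Brca1 at -3.17, adjusted p = 0.0145). Without knockout 2 their values were -1.28 and -1.61, and their adjusted p was 0.574 and 0.502.

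**Figure D2:**
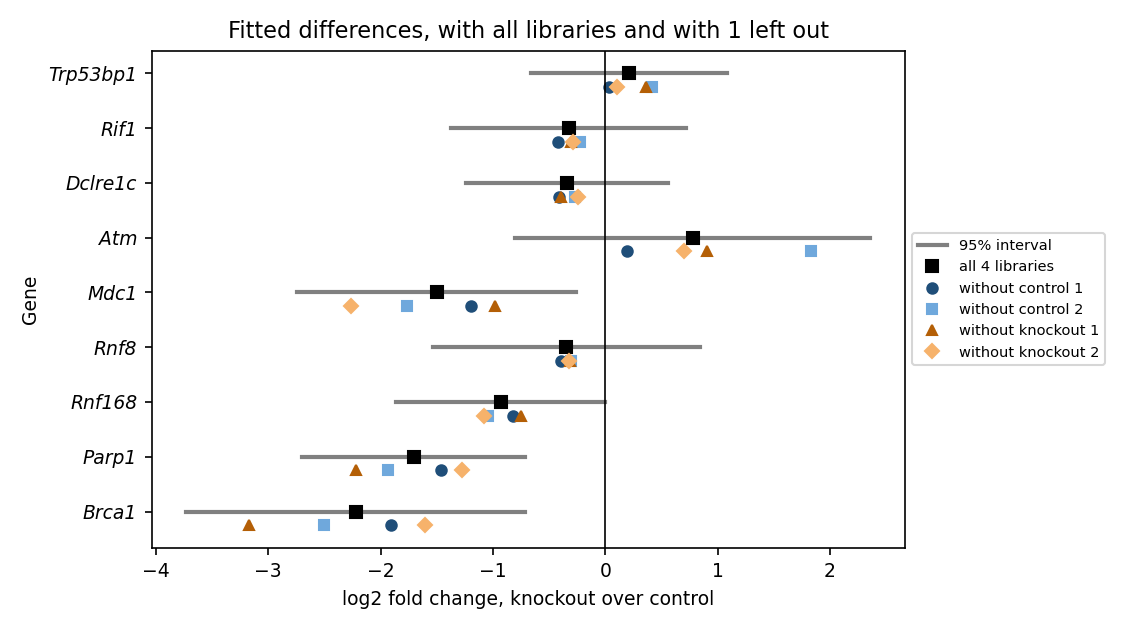
Fitted log2 fold change of each gene, knockout over control (black squares, with 95% intervals as grey bars), and the value with 1 library left out (coloured markers). All markers of 7 genes lie below 0, those of Trp53bp1 and Atm lie above 0, and the Atm value moves from 0.19 to 1.83 with the control library left out.

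The ratio of Trp53bp1 to Brca1 within a library depends little on the library scaling and sets the factor of end joining against that of recombination. On the scale of log2(CPM + 1), Trp53bp1 exceeded Brca1 by 0.36 and 1.28 in controls 1 and 2, and by 2.39 and 3.90 in knockouts 1 and 2. The groups did not overlap, and the mean difference between them was 2.33. An exact two-sided permutation test over the 4 libraries gave p = 0.333, the smallest value that 2 against 2 allows. Without knockout 2 the difference was 1.57, and without knockout 1 it was 3.08. The pair joins the member that differed least to the one that differed most (log2 fold change 0.21 for Trp53bp1 and -2.22 for Brca1). The ratio thus mostly restates the lower level of Brca1 and is not separate evidence of a shift between the repair routes.

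Per kilobase of annotated exon, the order of the genes differed between the groups. In controls, Parp1 was the most abundant at a mean of 35.4 CPM per kilobase (RPKM), followed by Mdc1 at 7.67 and Rnf168 at 7.12, whose library values overlapped. Dclre1c, Trp53bp1 and Brca1 followed at 2.93, 2.71 and 2.51 RPKM and overlapped as well, with Rif1 at 1.42, Rnf8 at 0.841 and Atm at 0.656 RPKM below them. In knockouts Parp1 was again first at 10.9 RPKM and Rnf168 second at 3.74 RPKM. Trp53bp1 came next at 3.14 RPKM, with library values that overlapped those of Rnf168, and then Mdc1 at 2.71, Dclre1c at 2.31, and Rif1 and Atm at 1.13 RPKM each. Mdc1 had 1.55 and 3.87 RPKM in knockouts 1 and 2, on either side of Trp53bp1 and Dclre1c and overlapping Rnf168. The place of Mdc1 in the knockout order is thus uncertain. Brca1 was last at 0.537 RPKM, with Rnf8, its neighbour in the order, at 0.661 RPKM and within its spread. These lengths join all annotated isoforms, so levels of genes with long untranslated exons are understated.

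The start of Brca1 lies 152 bases from that of Nbr1 and the start of Atm 376 bases from that of Npat, a histone gene activator of S phase. Both neighbours are read in the opposite direction, and the pairs were chosen by position. Nbr1 had 78.9 and 96.1 CPM in the controls and 90.7 and 112 CPM in the knockouts, so its groups overlapped where those of Brca1 did not. Its log2 fold change was 0.21 (SE 0.33, edgeR adjusted p = 0.809), against -2.22 for Brca1. Npat had 21.1 and 24.3 CPM in the controls and 24.3 and 27.9 CPM in the knockouts (log2 fold change 0.20, SE 0.38). The difference between the genes of a pair was not tested.

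The profile of each gene over the 4 libraries was set beside 89 other repair genes by the root mean square difference of centred log2(CPM + 1). With 4 libraries this is a description only. The measure is not scaled by a gene's spread. Genes that vary little therefore tend to come out close to each other, and genes that vary widely tend to come out farther apart. Rif1 and Rnf8 were nearly the same, at 0.035, and Palb2, which links BRCA1 to BRCA2, was nearest to both of them among the other repair genes, at 0.075 and 0.092. Parp1 and Brca1 differed by 0.221, and Eme1, a subunit of a structure-specific nuclease, was nearest to each of them, at 0.201 and 0.234. Rnf168 was nearest to Blm, a helicase gene, at 0.059, and Trp53bp1 to Herc2, a ubiquitin ligase gene that works with RNF8, at 0.098. Atm was nearest to Prkdc, the gene of its sister kinase in end joining, at 0.158, and Dclre1c to Jmjd1c at 0.085. Mdc1 had no close match, with Topbp1 nearest at 0.424.

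Of 94 other repair genes listed by step, 92 were tested, and 30 of these (32.6%, against 24.9% of all tested genes) had both knockouts below both controls and 12 (13.04%, against 25.8%) had them above. Their median log2 fold change was -0.27, and none passed in edgeR. DESeq2 called 5 lower and 0 higher. The lower share of 5.44% was at the background of 5.18% of all genes, while 2.47% of all genes were called higher. At an unadjusted p under 0.05 in edgeR, 11 were lower and 0 higher. The lower share of 12.0% was near the 9.89% of all tested genes, while 7.32% of all tested genes were higher.

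Among 15 genes of break sensing and the checkpoint kinases, the knockouts lay below the controls for 7 (46.7%) and above them for 2 (13.3%). Over all tested genes these shares were 24.9% and 25.8%. The median was -0.74. H2afx, which encodes the histone variant that ATM phosphorylates, had 654 and 125 CPM in the controls and 96.7 and 57.2 CPM in the knockouts. The controls were far apart, and the log2 fold change of -2.34 was -0.68 without control 1 (DESeq2 adjusted p over all libraries 0.00489). Topbp1, the gene of an activator of the kinase ATR, had 45.5 and 49.5 CPM against 15.2 and 18.3 CPM (log2 fold change -1.51, DESeq2 adjusted p = 0.0219). Among 17 genes of the ubiquitin and methyl-histone steps, the knockouts lay below for 5 (29.4%, near the 24.9% of all tested genes). They lay above for 3 (17.65%, against 25.8%). The median was -0.24. None had an unadjusted p under 0.05 in edgeR, against 9.89% of all tested genes lower and 7.32% higher.

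Among 18 tested genes of shieldin and end joining, the knockouts lay below the controls for 4 (22.2%) and above them for 5 (27.8%). Both shares were near those of all tested genes (24.9% and 25.8%), and the median was -0.19. Polm, the gene of the end-joining polymerase mu, had 180 and 87.8 CPM in the controls and 29.1 and 23.5 CPM in the knockouts (log2 fold change -2.35, DESeq2 adjusted p = 0.000116). Xrcc6, which encodes the Ku70 end-binding subunit, had 485 and 199 CPM against 121 and 67.5 CPM (log2 fold change -1.86, DESeq2 adjusted p = 0.00770), and its value was -1.05 without control 1. The shieldin genes, singled out after their values were seen, lay on the other side of 0. Mad2l2 had 38.1 and 33.0 CPM against 49.9 and 56.5 CPM, Shld2 9.66 and 8.66 against 10.7 and 17.8 CPM, and Shld1 overlapped between the groups. Their log2 fold changes were 0.581, 0.636 and 0.725 in that order, and none passed (edgeR adjusted p = 0.454, 0.580 and 0.587). Shld3, a further shieldin gene, was not found in the count table. Pagr1a, a partner of PTIP, had at most 1 count in any library and was not tested.

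Resection and recombination genes had negative log2 fold changes for 23 of 28, at a median of -0.70. The knockouts lay below the controls for 10 of 28 (35.7%, against 24.9% of all tested genes). They lay above for 1 (3.57%, against 25.8%). Dna2, a resection nuclease gene, had 8.07 and 14.0 CPM against 2.97 and 3.19 CPM, with an unadjusted p of 0.0189 in edgeR. Eme1 had 14.3 and 6.94 CPM against 3.43 and 1.23 CPM, with an unadjusted p of 0.0257 in edgeR. DESeq2 called neither (adjusted p = 0.0712 and 0.0541). In the PARP and single-strand break list, 4 of 15 lay below (26.7%) and 2 above (13.3%), at a median of -0.13. The share below was near the 24.9% of all tested genes, and the share above was under their 25.8%. Lig1, the ligase gene of replication and excision repair, had 152 and 102 CPM against 55.4 and 40.0 CPM (log2 fold change -1.41, DESeq2 adjusted p = 0.0258).

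**Figure D3:**
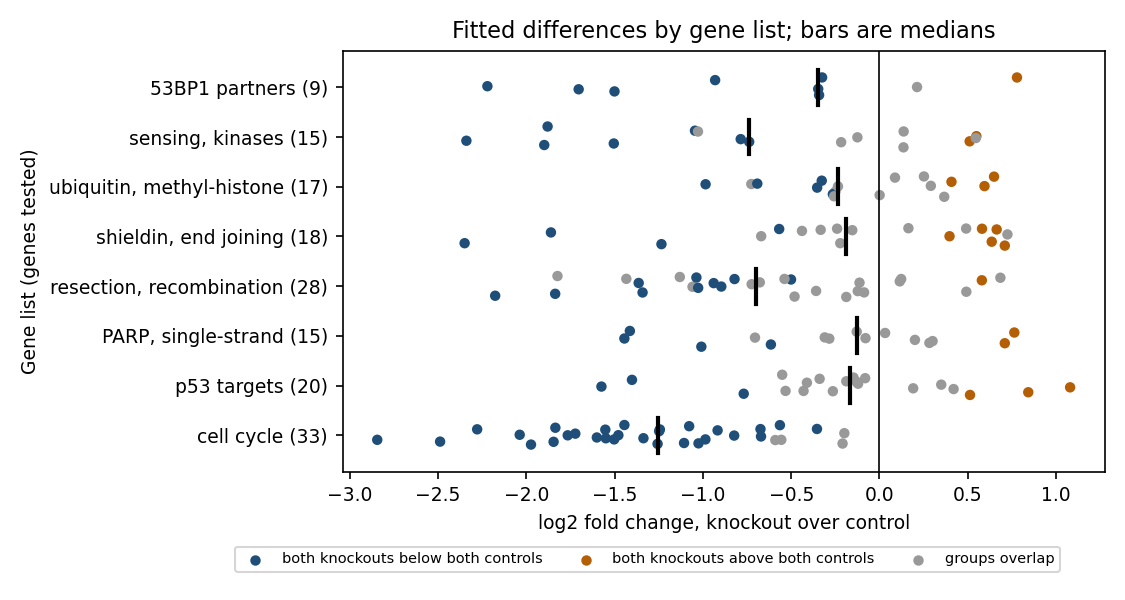
Fitted log2 fold changes, knockout over control, of each tested gene by list, with medians as black bars. The 9 genes of the 53BP1 pathway have a median of -0.35, the cell cycle list lies wholly below 0 with a median of -1.26, and the shieldin and end joining list spreads on both sides of 0.

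Cell cycle genes and blood cell markers also differed between the same libraries. Over all tested genes, 24.9% had both knockouts below both controls and 25.8% had them above. Of 33 cell cycle genes, 29 had both knockouts below both controls and 0 had them above, and their summed level was 5310 and 3288 CPM in controls 1 and 2 and 1897 and 1236 CPM in knockouts 1 and 2. Of 18 tested leukocyte markers, 15 were lower and 0 higher, and the list summed to 8014 and 2765 CPM against 1372 and 359 CPM, with Cd3e at 0 in all 4 libraries. Of 11 erythroid markers, 10 were lower and 0 higher, at 444 and 428 CPM against 104 and 115 CPM. Of 12 endothelial markers, 7 were lower and 0 higher, at 1234 and 1851 CPM against 1002 and 992 CPM. Brca1 and Parp1 had the same order of the 4 libraries as the cell cycle and leukocyte sums, control 1 highest and knockout 2 lowest. Mdc1 and Rnf168 had the order of the erythroid sum, control 1 highest and knockout 1 lowest. The erythroid controls were nearly equal, and the centred median of that list was higher in control 2 (0.979) than in control 1 (0.970). Dclre1c had the order of the endothelial sum, control 2 highest and knockout 2 lowest. The endothelial knockout sums were nearly equal, and the centred median of that list was lower in knockout 1 (-0.31) than in knockout 2 (-0.218). Genes with both knockouts below both controls can have only a few orders, so such matches carry little weight. The part of proliferation and of blood cells in the levels of Brca1, Parp1, Mdc1 and Rnf168 was not tested.

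**Figure D4:**
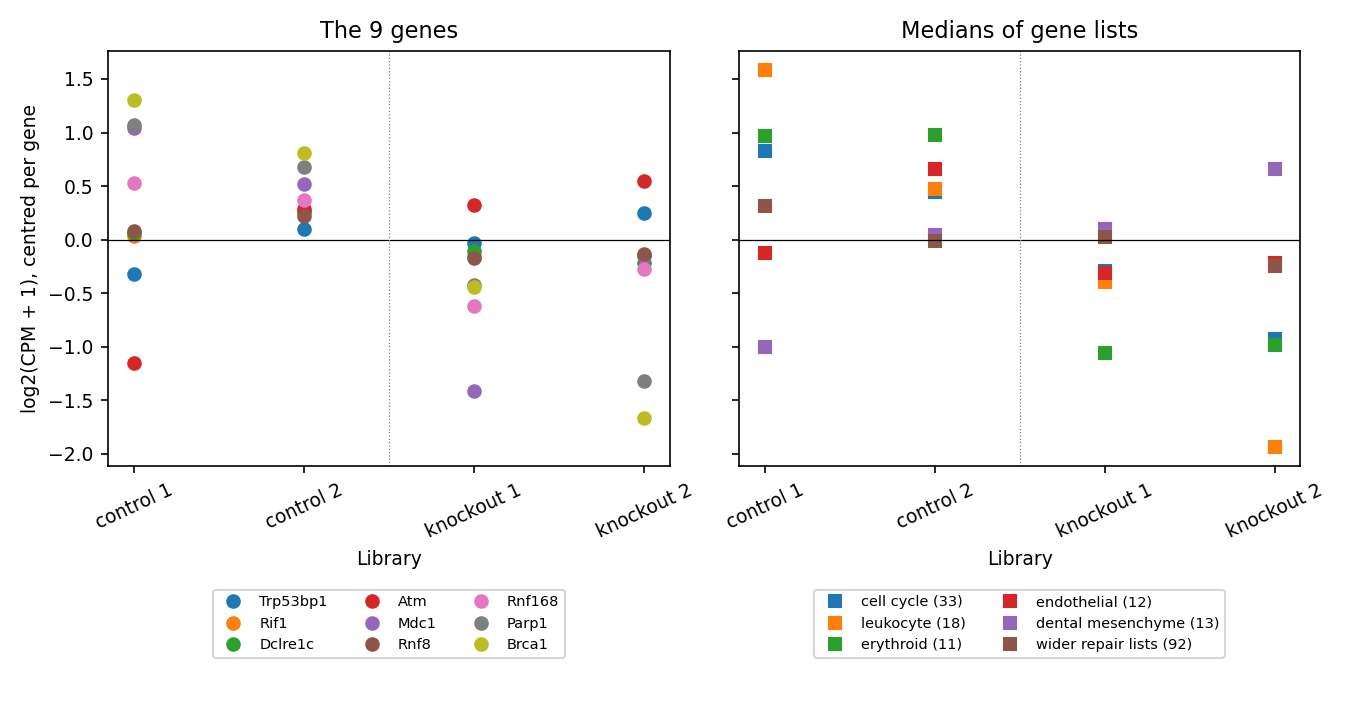
Level in each library as log2(CPM + 1) centred per gene, for the 9 genes (left) and as medians of gene lists (right), with a dotted line between controls and knockouts. Brca1 goes from 1.30 in control 1 to -1.67 in knockout 2, and the leukocyte and cell cycle medians have the same order of libraries, whereas the dental mesenchyme median is lowest in control 1.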

How the data were processed

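Polyadenylated RNA of 4 libraries was measured. The deposited values are raw counts per Ensembl gene ID that the authors made with Trim Galore 0.6.6, Bowtie2 2.3.5.1 and featureCounts 2.0.1 on GRCm38, per the submitters' processing notes. Annotation release, strand setting and handling of multi-mapping reads are, in the sources used here, not given. Per the labels' protocols, cDNA was primed with oligo-dT, amplified in 14 cycles and cut by a transposase, so strand and molecules are not marked.

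Symbols, coordinates and exon lengths came from GENCODE M21 (55227 of 55487 IDs matched). Where IDs shared a symbol, the one with most counts kept it. The test was edgeR's (4.0.16, R 4.3.3) quasi-likelihood F-test with filterByExpr and TMM, genotype as the only term, two-sided, on 17128 genes, adjusted by Benjamini-Hochberg, at a threshold of 0.05. CPM uses TMM-scaled totals, and the SE is the absolute log2 fold change over the square root of F. Alternatives were DESeq2 1.42.0, limma-voom (3.58.1), other scalings and filters, a replicate block and leaving out each library. No further column was present.

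All 9 members were named. From each repair list and the p53 list, up to 2 genes per direction were named by smallest p, at a mean of at least 5 CPM and an unadjusted p under 0.05. The lists were repair steps, p53 targets, cell cycle, and markers of dental mesenchyme, odontoblasts, ameloblasts, leukocytes, erythroid, endothelial and Schwann cells. Members and lists were chosen with earlier results of these data known.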

Additional observations from a re-analysis of the deposited data

How the results depend on the processing

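With 2 libraries a group and a biological coefficient of variation of 49.2%, differences of the size seen for Rif1, Dclre1c, Rnf8 and Trp53bp1 were not detectable. Over all genes, edgeR called 0 higher and 0 lower. Without the low-count filter it called 449 higher and 1005 lower, but the prior degrees of freedom were then infinite and a gene's own spread did not enter its p. DESeq2 called 458 higher and 959 lower, and edgeR with the replicate block 59 and 185. With 1 library left out the counts ran from 0 to 215 higher and from 0 to 703 lower. Of the members, edgeR called 0 with all libraries, 3 without the filter (Mdc1, Parp1 and Brca1), 2 in DESeq2 (Parp1 and Brca1), and 0 to 2 with 1 library left out. The cause of these differences in calls was not tested.

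The labels name no pairing. The deviations of same-numbered libraries from their group means had a correlation of 0.219 across genes, and with the replicate block no member passed (adjusted p of 0.0571 for Parp1 and 0.0910 for Brca1). Polm passed with the block (adjusted p = 0.0483). The alternatives were run for the 9 members, Paxip1, Topbp1, H2afx, Polm, Xrcc6, Dna2, Eme1, Lig1, Ei24 and Rrm2b, and none of these genes changed direction. Other genes named in the text were not rerun. The count of 7 members lower in both knockouts held under each scaling. It was also 7 with each library left out, but fewer libraries make the criterion easier to meet. Those counts could hardly fall, so they do not test the result. The difference in the ratio of Trp53bp1 to Brca1 ranged from 1.57 to 3.08, and the median of the wider repair genes from -0.45 to -0.11, with 1 library left out. Both kept their direction in the other alternatives run.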

Other observations

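Targets of p53, a factor that ATM activates after DNA breaks, had negative log2 fold changes for 14 of 20 genes and positive ones for 6. Of the 20, 3 had both knockouts below both controls and 3 had them above, with a median log2 fold change of -0.17. The share was 15% each way, under the 24.9% and 25.8% of all tested genes. Cdkn1a, the gene of the cell cycle inhibitor p21, stood at 234 ± 10.4 CPM in controls and 212 ± 30.6 CPM in knockouts (SD, n = 2 each). Rrm2b, which supplies nucleotides for repair, had 57.8 and 59.3 CPM in the controls and 24.1 and 15.1 CPM in the knockouts, and the adjusted p was 0.165 in edgeR and 0.0156 in DESeq2. Ei24 had 28.4 and 22.6 CPM against 43.4 and 64.5 CPM, and the adjusted p was 0.235 in edgeR and 0.172 in DESeq2. Among the remaining marker lists, 4 of 12 odontoblast markers had both knockouts below both controls and 4 above (33.3% each way). Of 7 tested Schwann cell markers, 3 were lower (42.9%) and 1 higher (14.3%). The shares over all tested genes were 24.9% and 25.8%.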
